A study of Mus musculus with 24 samples.

Results

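The m6A peaks of 10 interferon-inducible GTPase genes were followed in 12 mouse kidneys. The genes were Gbp2, Gbp3, Gbp4, Gbp5, Gbp6 and Gbp7 (guanylate-binding proteins), Irgm1, Igtp and Iigp1 (immunity-related GTPases) and Gvin1 (a very large GTPase). Every peak that overlapped an exon of one of them on its own strand was taken, and overlapping peaks of different kidneys were joined into 1 locus. All 10 of 10 genes had a peak, and they held 139 of the 91013 listed peaks, at 23 of 16815 loci. The genes were chosen by family, with the listing of Gbp4 and Gvin1 peaks in IG and TG kidneys in view, so that those values selected them in part. Every value that compares the treatment group with another group is therefore given here as a description without a test, and so are the IG values of Gbp4 and Gvin1.

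The kidneys came from male C57BL/6 mice aged 8 weeks. The control group (4 mice) received saline daily and a vehicle injection, the injury group (IG, 4 mice) received saline daily and cisplatin at 20 mg/kg, and the treatment group (TG, 4 mice) received a daily dose of 20 mg/kg berberine over 14 days and then the same cisplatin injection. Kidneys were taken 72 h after the injection, and RNA of the kidney tissue was immunoprecipitated with an antibody to m6A. TG had no counterpart that received berberine without cisplatin, so an effect of berberine apart from the injury cannot be told apart in these groups.

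Interferons, above all interferon gamma, switch on these GTPases in most cell types, including kidney epithelium, endothelium and macrophages. The guanylate-binding proteins gather on vacuoles that hold pathogens and on bacteria in the cytosol and feed into inflammasome activation. Among the immunity-related GTPases, Irgm1 and Igtp (also called Irgm3) act as regulators that keep effector members such as Iigp1 (Irga6) inactive on host membranes. The mark m6A is a methyl group on adenosine, placed mostly in a GGAC-like context in long internal exons and around stop codons, and proteins that read it affect the splicing, translation and decay of the mRNA.

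Each peak carries a MACS score, which is −10 times the log10 of its p-value, so a higher score is a more certain peak and not a larger methylated fraction. The lowest listed score was 13.02, and a p of 0.05 corresponds to 13.0. The lists held 8531 to 9579 peaks in control, 6745 to 8357 in IG and 5901 to 6753 in TG kidneys, and no read counts, so depth is unknown. To set kidneys side by side, a score was also given as its percentile within the list of its own kidney, with 0 where no peak was listed. A peak that is not listed may be unmethylated, too weakly expressed to be called or lost to depth, and these cannot be told apart here. In whole kidney, fewer cells of a type and less RNA per cell cannot be told apart either.

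Member loci with a peak numbered 15, 18, 7 and 16 in the control kidneys, 10, 7, 11 and 13 in IG and 7, 9, 10 and 14 in TG. The group values were 14 ± 4.83, 10.2 ± 2.50 and 10 ± 2.94 (mean ± SD, n = 4), and the ranges of the 3 groups overlapped. The third control kidney stood apart from the other control kidneys, with a peak in 7 of the 10 genes against 10 in each of the others, although its list of 8986 peaks was the second longest. It listed nothing in Gbp4, Gbp7 and Iigp1, and the percentile differences between IG and control at the leading loci of these 3 genes are given below with and without it. Member peaks made up 0.157% ± 0.0563, 0.143% ± 0.0404 and 0.160% ± 0.0487 of the lists of control, IG and TG (SD, n = 4).

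**Figure D1:**
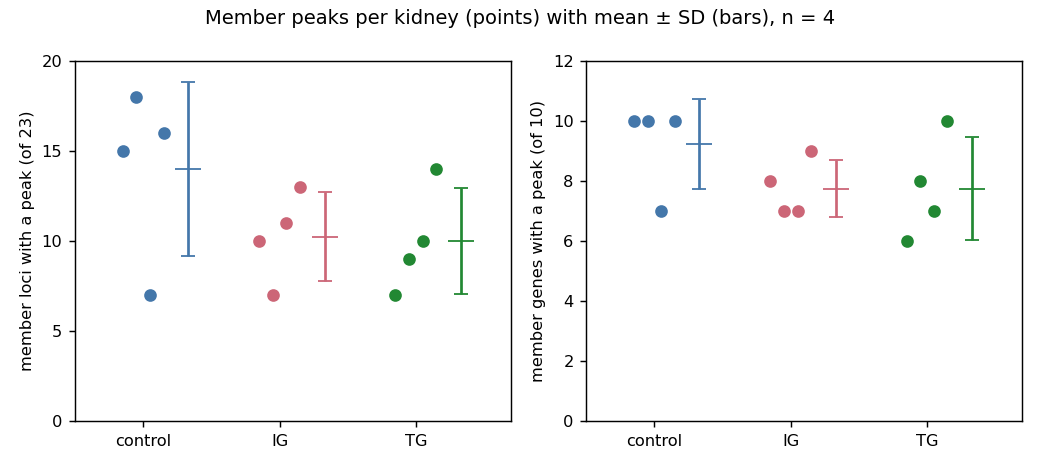
Number of member loci (left) and member genes (right) with a listed m6A peak in each kidney, by group, with points for kidneys and bars for the mean ± SD (n = 4). The 3 groups overlap, and the lowest control kidney has 7 loci in 7 genes.

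The loci were as broadly shared between kidneys as those of other genes. A peak in all 12 kidneys was listed at 3 member loci (13.0%, against 14.4% of all loci), and a peak in 1 kidney at 4 (17.4%, against 23.1%). The 3 loci present in every kidney were exon 10 of Gbp2, Gbp3 and Gbp6. Of the 139 member peaks, 64.0% spanned exactly 1 whole exon, against 64.7% of all peaks, and such a peak places the mark within the exon and no closer.

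**Figure D2:**
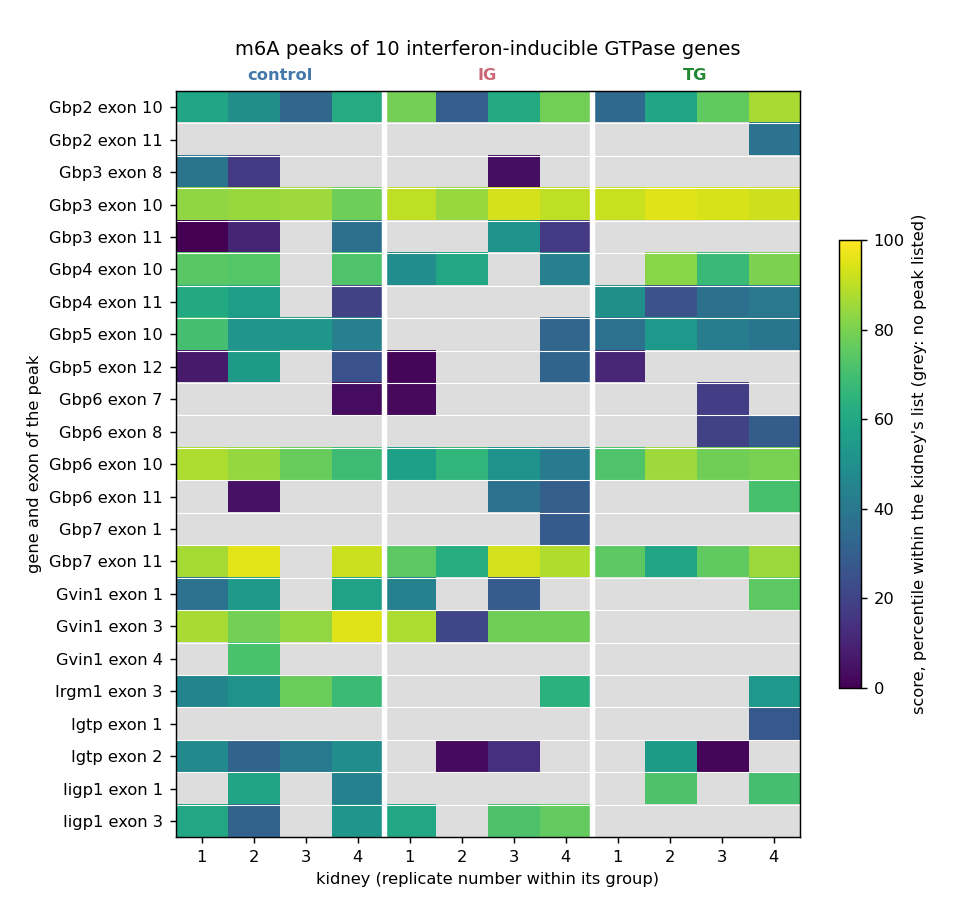
Percentile of the score within its own kidney's list (colour) at the 23 member loci (vertical axis) in 12 kidneys (horizontal axis, replicate number within each group), with grey for no listed peak. Exon 10 of Gbp2, Gbp3 and Gbp6 is filled in all 12 kidneys, Gbp4 exon 11 is empty in IG and Gvin1 exon 3 is empty in TG.

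Exon 10 was the place of the leading peak in 5 of the 6 Gbp members. It is a coding exon near the 3′ end of the gene, 194 bases long in Gbp2, Gbp3, Gbp4 and Gbp6 and 182 bases long in Gbp5, and all of its listed peaks covered it from end to end. Gbp7 was the exception, with 0 kidneys listing exon 10. In the other Gbp genes the matching exon was listed in 12 kidneys in Gbp9, 1 in Gbp10 and 0 in Gbp2b, Gbp8 and Gbp11. The exon therefore ranged from a peak in every kidney to none among close relatives.

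The copies on chromosome 5 (Gbp4, Gbp6, Gbp8, Gbp9, Gbp10 and Gbp11) were 88.7% to 95.9% identical to each other over the exon, and those on chromosome 3 were 54.6% to 70.6% identical to the Gbp6 copy. Each of the 6 exons drawn in the plot of exon 10 scores occurred exactly once on the assembled chromosomes. The m6A motif was searched on the strand of the gene as GGAC followed by T, A or C. GGACA occurred in the exon of Gbp6 and Gbp9, both listed in 12 kidneys, at the same place. Gbp3 exon 10 also had 1 match, while Gbp2 exon 10, listed in 12 kidneys too, and Gbp5 exon 10 had 0. The windows below show positions 142 to 166 of the exon in the chromosome 5 copies, 5′ to 3′, with positions 152 to 156 in capitals (GRCm38, minus strand).
Gbp6, chr5:105274215-105274239: agagagagcaGGACAtcaaagacca
Gbp9, chr5:105081158-105081182: agagagagcaGGACAtcaaagacca
Gbp4, chr5:105119406-105119430: agagagagcaGCTCAtcaaagacca
Gbp8, chr5:105016055-105016079: agagagagcaGCTCAtcaaagacca
Gbp10, chr5:105218415-105218439: agagagagcaGCTCAtcaaagacca
Gbp11, chr5:105324935-105324959: agagagagcaGCTCAtcaaagacca
Outside the capitals the 6 windows read the same. Of the 4 copies without GGACA, Gbp4 was listed in 9 kidneys, Gbp10 in 1 and Gbp8 and Gbp11 in 0, so a peak was also listed where these letters were absent. The longest run of identical bases was 71, between Gbp8 and Gbp10, and for the members it was 69 between Gbp6 and Gbp10 and 65 between Gbp4 and Gbp8. A read wholly inside such a run cannot be given to 1 gene. The paper describes RNA fragments of a typical length above these runs, which would also reach bases that differ.

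Gbp3 exon 10 (chr3:142570893-142571086) had its highest scores in TG. The scores were 336, 361, 379.8 and 268 in control, 698, 416, 943 and 686 in IG and 735, 1213, 954 and 949 in TG. No IG score fell into the control range, and each TG score was above every control score. Mean scores were 336 ± 48.8, 686 ± 215 and 963 ± 196 (SD, n = 4). Within-list percentiles moved less, with means of 82.8, 89.8 and 93.3, and the IG and control percentiles overlapped. The difference was 6.94 (exact permutation p = 0.0857, adjusted over all loci by the Benjamini-Hochberg method 0.472). The same exact permutation test gave p = 0.0286 on the log10 of the score or with lists shortened to their 5901 highest peaks. That is the smallest value that 4 against 4 kidneys can give. With scores of at least 71.3, the median over all lists, the exact permutation p was 0.0857. Without IG kidney 2 the exact permutation p was 0.0286. Leaving out any other 1 control or IG kidney gave exact permutation p of 0.0857 to 0.143.

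Gbp2 exon 10 (chr3:142635783-142635976) belongs to a protein that helps to break open pathogen vacuoles. Its scores were 104, 70.7, 38.8 and 119 in control, 281, 34.3, 106 and 264 in IG and 38.9, 98.4, 209 and 520.1 in TG. The 3 groups overlapped widely, and the percentile did not pass the test between IG and control (exact permutation p = 0.457).

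Gbp6 exon 10 (chr5:105274187-105274380, also annotated to Gm43302 on the same strand) moved the other way. Its scores were 463, 351, 228 and 164 in control, 95.1, 141, 71.9 and 50.4 in IG and 176, 403, 241 and 294 in TG. Every IG score was below every control and every TG score. The mean percentile was 79.3 ± 8.61 in control, 53.9 ± 10.2 in IG and 79.0 ± 5.31 in TG (SD, n = 4). The difference of IG from control was -25.4 percentile points (exact permutation p = 0.0286, adjusted over all loci by the Benjamini-Hochberg method 0.225). With lists of equal length the difference was -25.9 points (exact permutation p = 0.0571), and the same exact p was found on leaving out control kidney 1, 2 or 3 or IG kidney 3 or 4.

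Gbp4 exon 10 (chr5:105119378-105119571) was listed in 3 kidneys of each group. Its listed scores were 204, 195 and 204 in control, 69.2, 107 and 54.2 in IG and 316, 136 and 307 in TG. Listed IG scores lay below all listed scores of the other groups, as at Gbp6, while 1 kidney of each group had none. The mean percentile difference of IG from control was -17.2, and it was -35.6 without the third control kidney and -4.53 without the third IG kidney, neither of which listed the peak.

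Gbp5 exon 10 (chr3:142507915-142508096) belongs to a protein that promotes NLRP3 inflammasome assembly. Its scores were 173, 78.6, 80.3 and 60.0 in control, 43.5, 78.5, 49.2 and 49.7 in TG, and 37.1 in the single IG kidney that listed it. The peak was thus listed in 4 control, 1 IG and 4 TG kidneys, and IG did not overlap either group. The mean percentile fell from 54.9 in control to 8.25 in IG, a difference of -46.7 (exact permutation p = 0.0286, adjusted 0.225), and with lists of equal length it was -25.3 at p = 0.0571, the exact p found also on leaving out any 1 control kidney. On listing alone, Fisher's exact test gave p = 0.143.

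**Figure D3:**
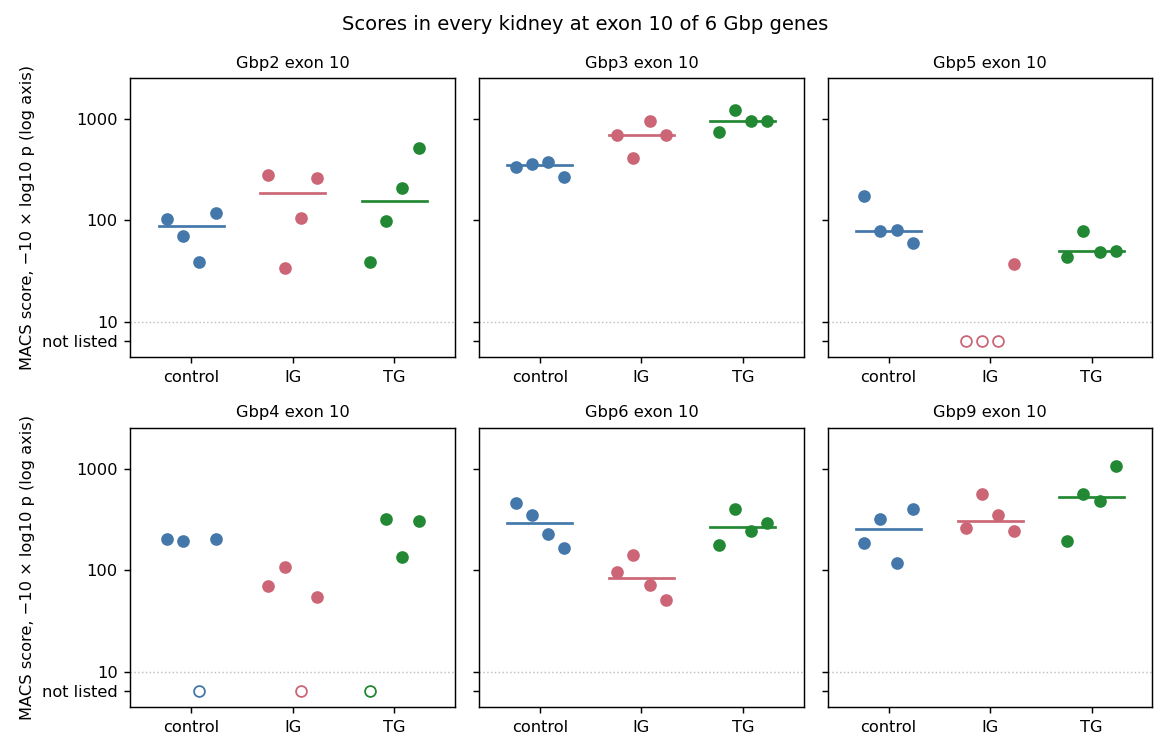
MACS score (vertical log axis) at exon 10 of 5 member genes and of Gbp9 in each kidney of the 3 groups, with open circles for kidneys that list no peak and bars for the median where all 4 kidneys list one. IG points lie lowest in Gbp5, Gbp4 and Gbp6, whereas in Gbp3 control points lie lowest and in Gbp2 the groups overlap.

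The last exon of Gbp4, exon 11, was the Gbp locus that differed most in listing. The locus (chr5:105117063-105118499, minus strand) starts with the 219 last coding bases, holds the stop codon and runs 1218 bases into the 3′ UTR. Its scores were 111, 87.9 and 24.8 in 3 control kidneys, and 66.3, 28.7, 41.9 and 52.0 in the 4 TG kidneys. No IG kidney listed it, and neither did the third control kidney. The listing was therefore 3, 0 and 4 of 4 kidneys in control, IG and TG.

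The mean percentile difference of IG from control was -33.9, and -45.3 without the third control kidney, given as a description because the IG listing of Gbp4 was in view when the genes were chosen. With lists of equal length 2 control kidneys kept the peak and the difference was -19.4. All scores were low or moderate: with scores of 71.3 (the median over all lists) or more, 2 control and 0 TG kidneys kept the peak. All 7 peaks began at the start of the exon, and they extended 1282 to 1437 bases in control and 971 to 1183 bases in TG, which did not overlap. Over the 12 kidneys 1 other locus of the series had the same listing, in Gpatch8.

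The first 1437 bases of the exon, which the locus covered, had 5 motif matches, at bases 73, 499, 589, 676 and 731. Each lay inside all 7 peaks. The rest of the 2733 bases of the exon was not searched. The coding match and the GGACT match are shown for the place they take on either side of the stop codon, 5′ to 3′, with the motif in capitals.
Gbp4 coding part, chr5:105118413-105118437: ccatcaactgGGACAtaacatcaag
Gbp4 3′ UTR, chr5:105117810-105117834: aagccagcctGGACTtctctcagaa
The nearest relative, exon 11 of Gbp9, was 78.9% identical with a longest shared run of 33 bases, and was listed in 2, 4 and 1 kidneys of control, IG and TG. That order differed from the order in Gbp4.

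**Figure D4:**
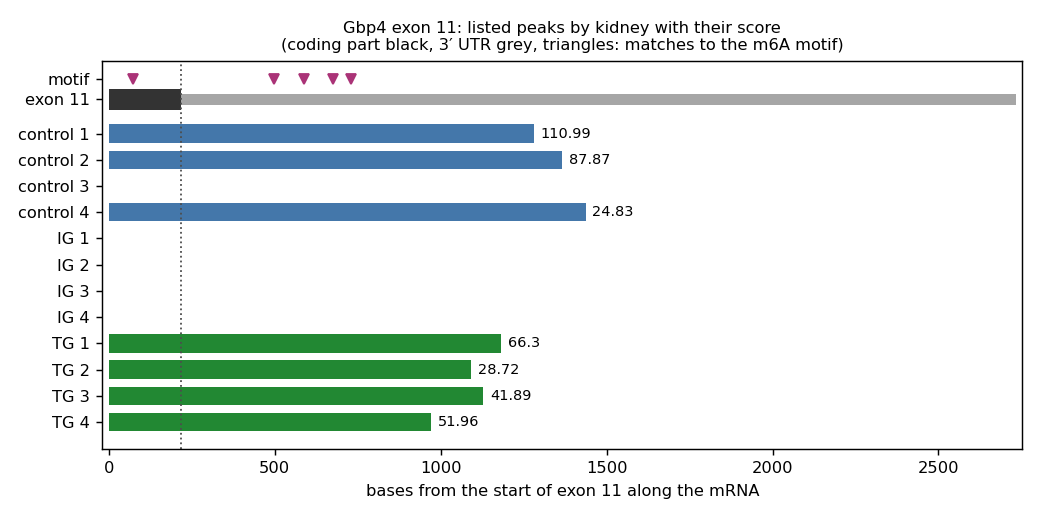
Extent of each listed peak in exon 11 of Gbp4 (horizontal axis, bases from the start of the exon along the mRNA) by kidney, with its score at the right end, above them the coding part, the 3′ UTR and the 5 motif matches (triangles). Motif matches were searched only in the first 1437 bases of the exon. Peaks of 3 control and 4 TG kidneys share their start and cover all 5 matches, and the 4 IG kidneys list none.

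The last exons of the other Gbp members gave no common order. Gbp7 exon 11 (chr3:142546320-142549056, stop codon and 3′ UTR) is also annotated to Gm43802 on the same strand. The Gbp7 protein takes part in assembly of the phagocyte NADPH oxidase. The locus scored 417, 1184 and 768 in 3 control kidneys, 222, 119, 891 and 537 in IG and 195, 97.5, 208 and 439 in TG. The third control kidney listed none, and the groups overlapped. The mean percentile difference of IG from control was 10.97 (exact permutation p = 0.886), and without that kidney it was -11.9 (p = 0.286 by the same exact test). Gbp3 exon 11 (chr3:142572474-142573212) was listed in 3 control kidneys at 13.1, 18.5 and 46.9, in 2 IG kidneys at 71.7 and 22.0 and in 0 TG kidneys. With lists of equal length it was listed in 0 control and 2 IG kidneys, so the order of control and IG turned. Gbp5 exon 12 was listed in 3, 2 and 1 kidneys, Gbp6 exon 11 in 1, 2 and 1 and Gbp2 exon 11 in 0, 0 and 1 of control, IG and TG. The remaining Gbp loci, Gbp3 exon 8, Gbp6 exons 7 and 8 and Gbp7 exon 1, were listed in 1 to 3 kidneys of the 12.

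Gvin1 exon 3 lost its listing altogether in TG. This 140-base exon (chr7:106175027-106175166, minus strand) lies in the 5′ UTR of Gvin1, ahead of the single large coding exon. Its scores were 432, 256, 340.2 and 1184 in control and 525, 25.9, 249 and 260.5 in IG, and no TG kidney listed it. IG and control overlapped, with a mean percentile difference of -19.9. It was -4.81 without the second IG kidney, whose score was the lowest, and -27.0 without the first, whose score was the highest in IG. Over the 12 kidneys 11 other loci shared this listing, and those of highest mean score were in Bicral, Rnf185 and Spast.

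The exon held 1 GGACT, shown 5′ to 3′ with the motif in capitals because the Gvin1 result rests on this exon.
Gvin1, chr7:106175067-106175091: aggccactaaGGACTccagagtgct
All 140 bases occurred at 2 places on the assembled chromosomes, and the second was exon 3 of Gm4070, another gene of the very large GTPase family. Exon 2 of these genes was also 100% identical and exon 1 was 98.1% identical, so reads from this leader cannot be assigned to one of them. The Gm4070 exon was listed at 47.3, 387 and 1032 in 3 control kidneys, at 890.1 and 43.1 in 2 IG kidneys and at 50.1 in 1 TG kidney. Counting either copy, a peak was listed in 4 control, 4 IG and 1 TG kidneys, so 1 TG kidney had a peak on these bases.

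Of the other Gvin1 loci, 1 had a TG peak. Exon 1 (chr7:106215225-106215340) was listed at 44.9, 83.8 and 101 in 3 control kidneys, at 57.2 and 32.3 in 2 IG kidneys and at 217 in 1 TG kidney, and its 102 bases occurred at 3 places on the assembled chromosomes. The coding exon 4 was listed in 1 control kidney at 172, as 1 peak over 8729 bases, and in no IG or TG kidney.

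Irgm1 exon 3 held most of the coding sequence of this regulator of the other immunity-related GTPases and of autophagy, with 1200 coding bases, the stop codon and 559 bases of 3′ UTR (chr11:48865245-48867003, minus strand). Its scores were 59.3, 76.1, 233 and 162 in control, 123 in 1 IG kidney and 84.9 in 1 TG kidney. It was listed in 4, 1 and 1 kidneys, and where listed in IG or TG its score lay inside the control range. The percentile difference of IG from control was -44.4, which was not past the threshold (exact permutation p = 0.0857). With lists of equal length it was -25.8 (exact permutation p = 0.2), and with scores of at least the median over all lists -17.4, with 3 control kidneys and 1 IG kidney keeping the peak (exact permutation p = 0.257). The only IG kidney with the peak was the fourth, and without it the percentile difference was -60.4 and the listing 4 of 4 against 0 of 3 kidneys. Leaving out the single kidney with the peak fixed that listing in advance, and with it the Fisher's exact p of 0.0286. Leaving out any other 1 kidney gave Fisher's exact p = 0.143 and exact permutation p of 0.0857 to 0.114.

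The exon held several GGACT matches in its coding sequence, of which the first and the last are shown, 5′ to 3′ with the motif in capitals.
Irgm1 first match, chr11:48866768-48866792: ttgtgactggGGACTctggcaatgg
Irgm1 last match, chr11:48865814-48865838: aaatcctgagGGACTccatcttccc
The most similar exon among the GTPase genes compared, exon 3 of Igtp, was 58.4% identical and was listed in 0 kidneys.

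Igtp exon 2 (chr11:58201468-58201717) carries the start codon of the second regulator, with 211 bases of 5′ UTR and 39 coding bases. Its scores were 66.7, 38.0, 50.7 and 74.4 in control, 14.3 and 19.5 in 2 IG kidneys and 81.8 and 13.5 in 2 TG kidneys. Every IG kidney lay below every control kidney, with a mean difference of -38.2 percentile points (exact permutation p = 0.0286, adjusted 0.225), and TG overlapped both groups. With lists of equal length no IG kidney kept the peak, the listing was 4 against 0 of 4 (Fisher's exact p = 0.0286) and the percentile difference was -12.8 (exact permutation p = 0.0286). With scores of at least that median 1 control and 0 IG kidneys kept it (Fisher's exact p = 1). A further peak, in exon 1, which Igtp shares with Irgm2, was listed in 1 TG kidney.

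Iigp1 exon 3 holds the whole coding sequence of this effector GTPase (chr18:60389792-60392629). Its scores were 107, 38.2 and 84.5 in 3 control kidneys and 109, 174 and 224 in 3 IG kidneys, and no TG kidney listed it. The listed IG scores were above the listed control scores, but the peaks covered 2838 bases in the control kidneys and 1385 to 1545 bases in the IG kidneys, from the same start. The mean percentile difference of IG from control was 15.8 (exact permutation p = 0.457), and 3.82 without the third control kidney (p = 0.886 by the same exact test). Exon 1, in the 5′ UTR, had the opposite listing, with scores of 98.6 and 61.3 in 2 control kidneys, none in IG and 178 and 172 in 2 TG kidneys. The gene thus had a peak in 3, 3 and 2 kidneys of control, IG and TG.

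**Figure D5:**
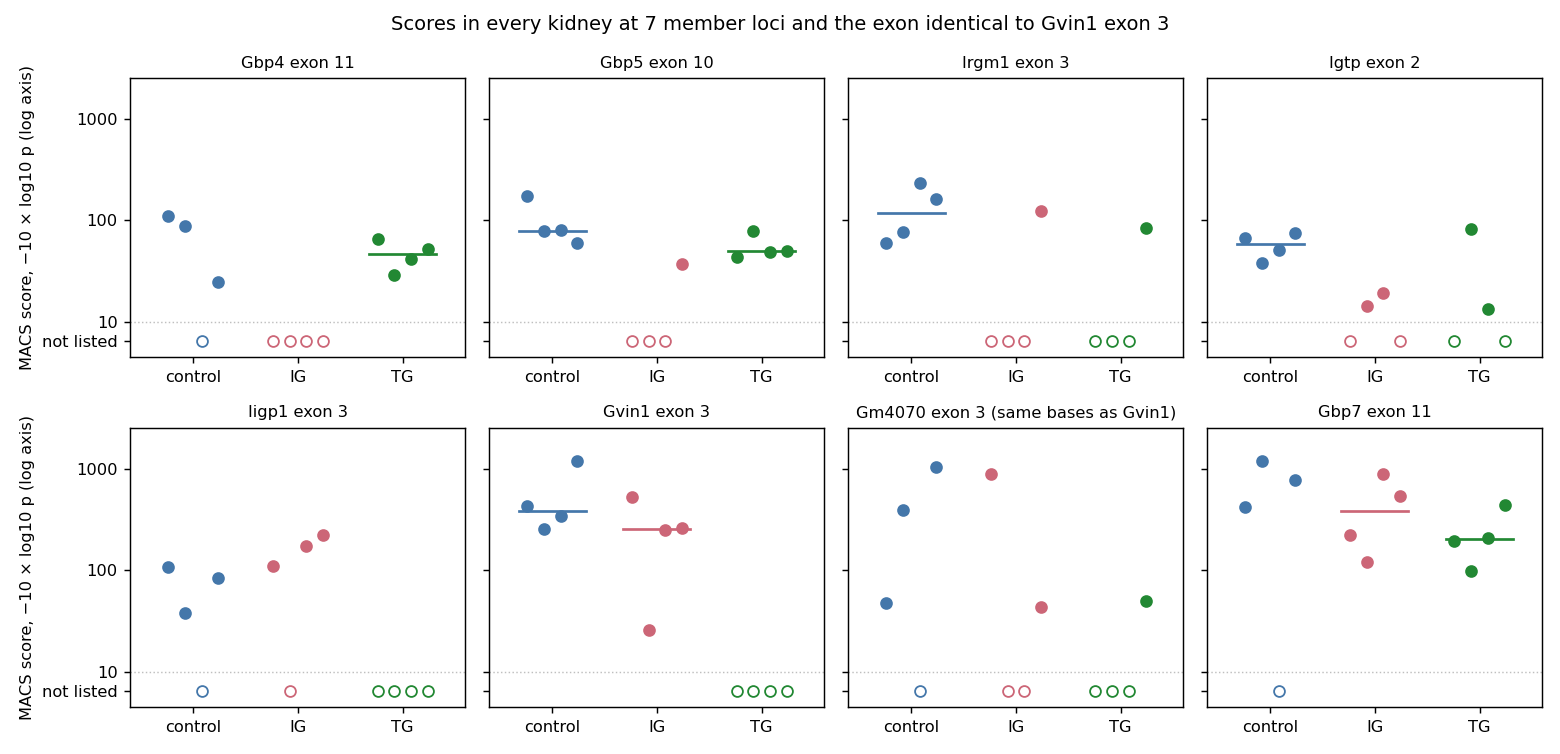
MACS score (vertical log axis) in each kidney at 7 member loci and at exon 3 of Gm4070, whose bases equal those of Gvin1 exon 3; open circles are kidneys that list no peak and bars the median where all 4 list one. Gbp4 exon 11 lacks IG points, Gvin1 exon 3 and Iigp1 exon 3 lack TG points, and Gm4070 exon 3 has 1 TG point at 50.1.

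Over all member loci, IG was compared with control in 20 loci that had a peak in either group, of which 5 belonged to Gbp4 and Gvin1, whose IG values entered the choice of genes. Each count is therefore also given over the other 15. On listing, Fisher's exact test called 0 of 20 member loci and 0 of those 15, against 4.08% of all 16072 loci tested (655), of which 2.73% were lost and 1.35% gained in IG. Only 4 of 4 against 0 of 4 kidneys can pass that test. On the percentile, the exact permutation test called 3 of 20 (15.0%) and 3 of the 15 (20%), against 12.7% of all loci, and these were Gbp5 exon 10, Gbp6 exon 10 and Igtp exon 2. All 3 were lower in IG, a direction called in 8.84% of all loci, with 3.86% called higher. None of the 16072 loci passed 0.05 after adjustment over all of them with either exact test, where the lowest adjusted p was 0.701 for listing and 0.225 for the percentile.

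A difference of at least 3 of 4 kidneys between IG and control was seen at 3 of 20 member loci, against 12.8% of all loci, and all 3 had fewer IG kidneys: Gbp4 exon 11, Gbp5 exon 10 and Irgm1 exon 3. Without Gbp4 and Gvin1 it was seen at 2 of 15. Fewer IG kidneys by this measure were found at 8.95% of all loci and more at 3.82%. The median percentile difference was -15.2 over the 20 member loci, of which 13 were lower and 7 higher (65% lower), and -2.95 over all loci, of which 61.6% were lower. Without Gbp4 and Gvin1 the median was -0.24 over 15 loci, of which 8 were lower (53.3%), so the lower median over the 20 loci rested on those 2 genes.

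Between TG and IG, a comparison that entered the choice of genes, 4 of 22 member loci differed by at least 3 of 4 kidneys, and 4.49% of all 13367 loci did. Gvin1 exon 3 and Iigp1 exon 3 had fewer TG kidneys (3.21% of all loci), and Gbp4 exon 11 and Gbp5 exon 10 had more (1.28% of all loci). A complete difference of 4 against 0 kidneys was found at Gvin1 exon 3 and Gbp4 exon 11 and at 0.666% of all loci. The median percentile difference was 2.68 over the 22 member loci and -2.64 over all loci. Between TG and control, which share the same TG kidneys, 4 of 22 member loci differed by at least 3 kidneys, with 14.8% of all loci, and all 4 had fewer TG kidneys (12% of all loci, with 2.83% having more): Gbp3 exon 11, Gvin1 exon 3, Irgm1 exon 3 and Iigp1 exon 3. The Gvin1 locus was the 1 of them with 4 against 0 kidneys, which 4.73% of all loci showed.

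Motif content did not set the member loci apart. In the 100 bases at the centre of each locus GGACT occurred in 2 of 23 member windows (8.70%), against 10.6% of all windows, and on the opposite strand in 13.0% against 9.16%. GGAC followed by T, A or C occurred in 34.8% of the member windows and 31.5% of all. Over whole loci GGACT occurred 1.07 times per kb in the members and 1.15 times per kb in all loci.

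Of 21 other interferon-inducible GTPase genes, 16 had a peak, at 32 loci. Of the 28 loci compared between IG and control, 3 had at least 3 fewer IG kidneys and 0 had more, where 8.95% and 3.82% of all loci did. Their summed scores were 2121 to 7247 in control, 1660 to 4180 in IG and 1830 to 6501 in TG, and overlapped. Gm12250 (Irgb10, a GTPase that acts on bacterial membranes) was listed in control at 65.5, 84.9, 136.0 and 136.1, in 0 IG kidneys and in 3 TG kidneys at 29.98, 44.02 and 42.21. Gm1966, of the very large GTPase family, had a locus in 4, 0 and 1 kidneys (chr7:106596314-106600739) and another in 4, 1 and 4 (chr7:106600785-106604039) of control, IG and TG. Fisher's exact p was 0.0286 between IG and control at Gm12250 and the first Gm1966 locus, with 2.73% of all loci lost in IG by that test. Between TG and IG 1 of 26 loci had at least 3 fewer TG kidneys (Gbp9 exon 11) and 2 had more (Gm12250 and the second Gm1966 locus), beside 3.21% and 1.28% of all loci.

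The receptors and signalling proteins above these genes, 22 in the list, had a peak in 15 genes at 43 loci. Between IG and control 6 loci had at least 3 fewer IG kidneys and 2 had more, again beside 8.95% and 3.82% of all loci. The summed scores of the list were 1710 to 2534 in control, 932 to 1644 in IG and 736 to 907 in TG, and the 3 ranges did not overlap. Such sums are not scaled to depth or list length. The peak lists shortened in the same order, with means of 8952, 7421.75 and 6379.50 peaks. How often other sets of genes show such a gap was not computed, so it is not read as particular to these genes. A locus of the interferon gamma receptor chain Ifngr1 was listed in 4, 1 and 0 kidneys of control, IG and TG, the single locus of the type I receptor chain Ifnar1 in 4, 1 and 1, and 1 of the 3 loci of the kinase Jak1 in 4, 0 and 0, while any Jak1 locus was listed in 4, 2 and 2. Scores at that Jak1 locus were 50.7, 25.2, 17.6 and 52.3 in the control kidneys (Fisher's exact p = 0.0286 against IG). The kinase Jak2 had a locus in 4, 1 and 4 kidneys and another in 0, 3 and 0, and any of its 6 loci was listed in 4, 4 and 4. Single loci of the phosphatase gene Ptpn11 were listed in 4, 1 and 4, of the transcription factor Irf2 in 3, 0 and 1 and of Pias1, which encodes a SUMO ligase, in 0, 3 and 2. Counting all their loci, these genes were listed in 4, 3 and 4, in 4, 4 and 3 and in 3, 4 and 3 kidneys. Between TG and IG, 1 of 31 loci had at least 3 fewer TG kidneys and 2 had more, beside the same 3.21% and 1.28% of all loci.

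Of 40 other interferon-stimulated genes, 26 had a peak, at 64 loci. Between IG and control 3 of 64 had at least 3 fewer IG kidneys than control, 1 had more and the others differed by less, where 8.95% and 3.82% of all loci did so. The summed scores of this list overlapped, with 1471 to 7138 in control, 2241 to 10313 in IG and 970 to 6722 in TG. Single loci of the checkpoint ligand Cd274 were listed in 4, 0 and 2 kidneys and of Parp9 in 3, 0 and 1 of control, IG and TG, while any of the 4 loci of each was listed in 4, 4 and 4 (Cd274) and 4, 2 and 2 (Parp9). The single locus of the RNA-editing enzyme Adar was listed in 4, 0 and 1 and that of the exonuclease Isg20 in 1, 4 and 4. Adar scores in control were 230.2, 155, 42.4 and 125, and Fisher's exact p between IG and control was 0.0286 at the Adar locus and at that of Cd274. Between TG and IG 1 of 52 loci, in the ubiquitin ligase Rnf213, had at least 3 fewer TG kidneys (3, 4 and 1) and 0 had more, with 3.21% and 1.28% of all loci doing so.

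The peak lists also held peaks in cell type markers. Their summed scores, too, are not scaled to depth or list length. The summed scores of 8 endothelial marker genes were 2423 to 4261 in control, 857 to 2122 in IG and 858 to 2350.0 in TG. Pecam1 and Cdh5 were listed in all 4 kidneys of each group, Flt1 in 4, 2 and 1, Emcn in 1, 0 and 1, Tek in 0, 1 and 1 and Plvap in 4, 0 and 0, with Kdr and Eng at 0 throughout. The summed scores of 15 macrophage and leukocyte marker genes were 21.0 to 53.8 in control, 193 to 399 in IG and 45.1 to 555 in TG. Over all its loci Itgam was listed in 0, 4 and 4 kidneys and Cx3cr1 in 4, 1 and 4. Ptprc and C1qa were each listed in 1, 0 and 0, C1qb in 0, 1 and 0 and Cd79a in 0, 0 and 1. Adgre1, Cd68, Csf1r, Lyz2, C1qc, Cd3e, Cd3g and Cd8a were at 0. The summed scores of 6 tubular injury markers were 760 to 994 in control, 786 to 5698 in IG and 1314 to 2047 in TG, and those of 12 kidney epithelium markers 0 to 283, 237 to 1551 and 0 to 89.5, so IG and control overlapped in both. Among the injury markers Havcr1 was listed in 0, 4 and 3 kidneys, and Lcn2, Krt20 and Spp1 were at 0. Of the epithelium markers 5 had a peak, with 0 to 2 of them in a kidney, Slc12a1 was listed in 1, 4 and 0 kidneys and Nphs1 in 1, 4 and 2, while Lrp2, Slc34a1, Slc5a2, Umod, Slc12a3, Aqp2 and Wt1 were at 0. A list of m6A peaks does not show whether an unlisted gene was expressed, so the labelled tissue could not be checked by these markers. The part of endothelial and leukocyte content in the values of the GTPase genes was not tested.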

How the data were processed

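MeRIP-seq peak lists of 12 kidneys (control, IG and TG, 4 each, grouped by the sample labels) were used; neither the 12 input libraries nor any RNA-seq data entered. The authors trimmed reads with Cutadapt 1.9.3, aligned them with HISAT2 2.0.4 to mm10 (GRCm38), called peaks per kidney with MACS and kept peaks on exons of mRNA. The version, threshold and control library of MACS are not given in the sources used here. The deposited score is −10 times the log10 p-value of a peak. It depends on depth and RNA level, which the lists do not hold, so no counting interval can be given and precision rests on 4 kidneys per group.

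Same-strand peaks sharing at least 1 bp formed a locus, and a locus belonged to a gene when a peak overlapped an exon of any of its GENCODE M21 transcripts on the same strand. Exons are numbered in the transcript with the longest coding sequence. The score of a kidney at a locus was its highest. IG and control were compared at every locus by listing (Fisher's exact test, two-sided) and by a two-sided exact permutation test over 70 arrangements on the within-list percentile, each adjusted by the Benjamini-Hochberg method. Calls refer to unadjusted p under 0.05. The tests were checked on simulated data with planted changes. Nothing states that the kidneys were processed separately beyond their being separate mice, so p-values measure the spread between these kidneys.

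The members and lists were chosen with earlier results of these data known. All 10 members are named, with scores in every kidney at the locus of highest mean score per member and at each locus that differed by at least 3 of 4 kidneys between any 2 groups. Genes of the other lists are named where a locus differed by at least 3 of 4 kidneys between IG and control or TG and IG, and markers also where they are at 0. Sequences were read from the RefSeq GRCm38 genome with samtools 1.23.1 and pysam 0.24.0, exons were aligned with Biopython 1.88, and statistics used Python 3.11.15, numpy 2.4.6 and scipy 1.17.1. Alternatives were shortened lists, a score minimum, other rules for joining and annotation, log10 scores, leaving out each kidney and a replicate block.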

Additional observations from a re-analysis of the deposited data

Results flagged for a closer look

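The number of member genes with a peak was 7 in the third control kidney against 10 in each of the other control kidneys. The gap to the nearest other kidney was the whole range of the group (a ratio of 1). Because the other control kidneys tied at 10, this ratio would be 1 for any other count in the third. Of 27 groups of values examined in this way 1 stood out. Chance alone gives about 1 in 20 for untied values, and that rate does not hold for tied counts.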

How the results depend on the processing

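Of the values recomputed under alternatives, most stayed within the spread between kidneys or within 1.5 times the count, 43 moved further and 0 called values changed sign, while Gbp3 exon 11, not called, turned from 1 fewer to 2 more IG than control kidneys with lists of equal length. With each list shortened to its 5901 highest peaks, the listing test called 1 member locus in place of 0 (Igtp exon 2), and the percentile test called Igtp exon 2 and, higher in IG, Gbp3 exon 10, while Gbp5 exon 10 and Gbp6 exon 10 each had an exact permutation p of 0.0571. With scores of at least the median over all lists, the percentile test called 1 locus (Gbp6 exon 10), differences of at least 3 of 4 kidneys fell to 1 locus between IG and control and 2 between TG and IG, member loci per kidney were 9 in control, 5.75 in IG and 6.25 in TG, and member genes per kidney were 7.5, 5.5 and 6. Leaving out 1 kidney at a time gave 0 to 2 loci called on listing, 1 to 4 called on the percentile, and 1 to 3 (IG and control) and 2 to 4 (TG and IG) loci that differed by at least 3 kidneys. Without IG kidney 4 the listing calls were Gbp5 exon 10 and Irgm1 exon 3. It was the only IG kidney that listed either peak, so leaving it out fixed both calls. The count without control kidney 3 was a locus of Gbp4, and that without IG kidney 1 included a locus of Gvin1, neither of which is a test. Without control kidney 1 or 2 the percentile call was Igtp exon 2 alone. Without IG kidney 2 Gbp3 exon 10 was called as well. Member loci per kidney were then 12.7 to 16.3 in control, 9.33 to 11.3 in IG and 8.67 to 11 in TG, and member genes 9 to 10, 7.33 to 8 and 7 to 8.33. The cause of these moves was not tested. Same-numbered kidneys did not deviate together (correlations -0.0198 to 0.0286 between IG and control and -0.0339 to 0.0916 between TG and IG), so the numbers do not pair the mice, and with a replicate block 0 loci were called on listing and 0 on the percentile, because 4 pairs cannot give a p under 0.125. Counting either Gvin1 or Gm4070 exon 3, chosen after seeing the data, gave 3 fewer TG than IG kidneys in place of 4. GGACT occurred in 43.5% of whole member loci and 39.1% of all whole loci, in place of 8.70% and 10.6% of central windows, since whole loci are longer. Setting Gbp4 and Gvin1 aside, also added after seeing the data, left 0, 3 and 2 loci called on listing, called on the percentile and differing by at least 3 of 4 kidneys. Joining within 100 bp, by a reciprocal overlap of 50%, without regard to strand, or with protein-coding transcripts only left each count within these limits. Depth is unknown, so a peak that is not listed sets no limit on methylation.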

Other observations

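Exons 1 to 3 of Gvin1 form a leader that Gm4070 shares nearly base for base, yet exon 1 and exon 3 of Gvin1 were not listed alike within TG. In the fourth TG kidney Gvin1 exon 1 scored 217 and Gm4070 exon 3 scored 50.1, while Gvin1 exon 3 was not listed. The first exon of Gm4070 (chr7:105953855-105953970) was listed in 1 control, 3 IG and 2 TG kidneys.

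In the GTPase genes 9930111J21Rik1 and 9930111J21Rik2 on chromosome 11, the loci chr11:48966352-48967975, chr11:49015874-49020392 and chr11:49038161-49039818 were each listed in all 12 kidneys, with scores from 205 to 1245 at the first of them. F830016B08Rik on chromosome 18 was listed in 4, 4 and 3 kidneys and Gm4951, a relative of Iigp1 with 69.6% identity over exon 3, in 4, 4 and 4, while Iigp1 exon 3 was listed in 3, 3 and 0 of control, IG and TG.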
